A study of Mus musculus with 12 samples.

Results

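The comparison described here set mouse blood progenitors that carried a shortened form of the leukaemia fusion CBFB-MYH11, called ACD mutant, against progenitors that carried the empty retroviral vector, called MIB control. It used 8 of the 12 arrays in the series, chosen by their labels: ACD mutant replicates 1 to 3 and MIB control replicates 3 to 7. The other 4 arrays, of cells with the full fusion (INV16), give values set beside these, and entered the test only where a fit of 11 or 12 arrays is named. All groups shared the starting cells, which were normal bone marrow cells sorted as lineage-negative, c-Kit+, Sca-1+ and Flt3-negative. All shared the culture too, with 24 h before the virus in 10% serum, SCF at 50 ng/ml and IL-6 at 5 ng/ml, then 4 h with virus and polybrene and 20 h in fresh medium before GFP-positive cells were sorted for RNA. ACD mutant cells received INV16 deleted of the assembly competence domain, a form that the series describes as non-leukemogenic, and the genotype, sex and age of the mice are not given in the sources used here. Each replicate was a separate sort and transduction, so a p-value here weighs a difference against the variation among independent sorts. The fusion was read about a day after retroviral delivery, not at its natural locus, and its level in these cells was not measured.

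As background, the core binding factor is a pair of proteins, a DNA-binding RUNX subunit and CBFB, which holds RUNX on DNA. Inversion of chromosome 16 in acute myeloid leukaemia joins most of CBFB to the tail of smooth muscle myosin, MYH11, and the product binds RUNX proteins and interferes with their action on blood cell genes. The assembly competence domain lies in the myosin tail and lets fusion molecules assemble into larger structures. Comparing its deletion with the empty vector addresses what a fusion without that domain does to progenitor transcription on its own.

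Levels are the deposited log2 values, in which 1 unit is a doubling, and a gene is represented by its brightest probe set. The array medians of the 8 arrays lay between 5.62 and 5.67. The arrays fell into 2 sets by the bacterial spike-in controls: for MIB control replicates 3 to 5, BioC exceeded BioB by 1.07 to 1.15 log2, and the ACD mutant arrays and MIB control replicates 6 and 7 had values of -0.11 to -0.01. The main results are therefore also given against MIB control replicates 6 and 7 alone. Only the difference of the controls is matched there, since the BioB level differed, at 7.13 to 7.49 in ACD mutant and 8.57 to 8.76 in MIB control, so the BioB level and the group cannot be told apart. The difference between the 3′ and 5′ Gapdh probe sets, which grows as RNA is shortened, was 1.63 to 3.17 log2 in ACD mutant, the highest in replicate 1, and 1.34 to 1.76 in MIB control. Kit, for which the cells were sorted, was present at 10.78 to 11.25 in ACD mutant and 10.82 to 11.43 in MIB control. The progenitor marker Cd34, not part of the sort, was at 11.15 to 11.82 and 11.58 to 12.04. Flt3, absent from the surface by the sort, still gave 8.21 to 8.64 in ACD mutant and 8.34 to 9.34 in MIB control.

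In the ACD mutant a small set of genes changed. Among the genes that passed the test, the fall of the small GTPase Gem had the largest size and the smallest p. The largest rises among them were those of the myeloid receptor Cd300lb and the antiviral genes Ifit1 and Oasl2. Of 12888 genes tested with limma, 72 passed an adjusted p of 0.05, called here. That is 0.559% of the genes. Of them 46 (0.357%) rose and 26 (0.202%) fell. The sizes of the called differences ran from 0.52 to 2.83 log2 with a median of 0.83, and 21 were at least 1 log2. The median over all genes was 0.01 log2. All 72 called genes had groups that did not overlap, as 1640 of all genes (12.7%) did, and at an unadjusted p under 0.05 there were 2470 genes (19.2%).

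How many genes passed depended on single arrays. Leaving out ACD mutant replicate 1 left 2 called genes, Gem and Pcp4l1, and leaving out replicate 2 left Gem alone. Without ACD mutant replicate 3 there were 99, of which 40 were among the 72. Leaving out MIB control replicate 3 gave 35, replicate 5 gave 12 and replicate 7 gave 470. Gem was the only gene called in all 8 of these fits, Pcp4l1 was called in 7 of them, and 7 genes in 6. With the Gapdh difference as a covariate Gem alone was called. Against MIB control replicates 6 and 7 alone, 44 genes (0.341%) were called, 24 higher and 20 lower, and 18 of them were among the 72. All 72 kept their direction in that comparison, which was fixed beforehand, since none of them overlapped any control, replicates 6 and 7 included. In it 71 of them differed by at least 0.5 log2, but these controls had also served to call them, so this is no independent check. With INV16 replicates 1 to 3 added to the fit, to share 1 estimate of the spread over 11 arrays, 217 genes (1.68%) were called, 71 of them among the 72.

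**Figure D1:**
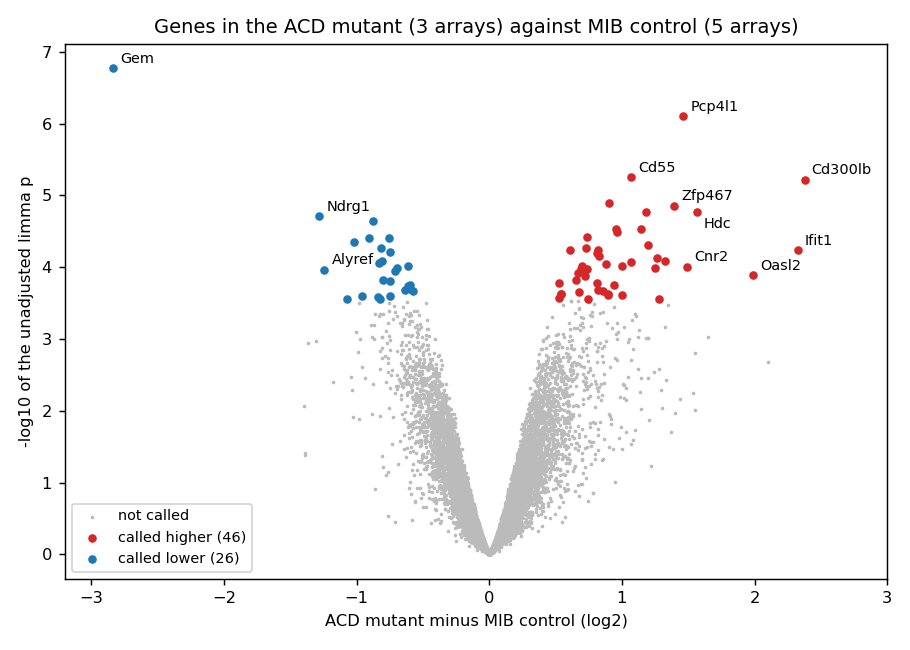
Each point is 1 of 12888 genes, with the ACD mutant minus MIB control difference (log2) on the x axis and -log10 of the unadjusted limma p on the y axis. The 46 genes called higher are red and the 26 called lower are blue, and Gem stands alone at the left with a difference of -2.83.

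The called genes are described by what they are known to do, which is no test that any such group changed. Among genes that fell, the largest change was in Gem, a GTP-binding protein of the RGK group that restrains voltage-gated calcium channels. Its level was 9.05, 8.81, 8.97, 8.27 and 8.96 in MIB control replicates 3 to 7, and 5.51, 5.82 and 6.60 in the ACD mutant arrays. Every ACD mutant array was far below every control, and the lowest control was replicate 6. The difference was -2.83 log2 (SE 0.24, 3 against 5 arrays, limma adjusted p = 0.00219), or 7.13-fold lower. Against MIB control replicates 6 and 7 alone it was -2.64 (adjusted p = 0.0392). The other RGK members measured, Rem2 and Rrad, had differences of -0.07 and 0.00, and of the 10 small GTPases and signalling partners tested Gem was the only one called.

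Ndrg1, a gene induced by stress and low oxygen, was next. Its level was 10.59 to 11.30 in MIB control and 9.95, 9.62 and 9.41 in ACD mutant, with no overlap. The difference was -1.28 log2 (SE 0.18, adjusted p = 0.0280), and -1.10 (adjusted p = 0.0542) against MIB control replicates 6 and 7. The other 4 Ndrg1 probe sets gave differences between -0.47 and -1.55, all in the same direction. Of 24 genes tested in the glycolysis and hypoxia list Ndrg1 was the only one called, and the list median was -0.03. Kdm3a and Egln3, both targets of the hypoxia-inducible factors, had differences of 0.48 and 0.20, and Bnip3 one of -0.51.

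Other genes that fell included Alyref, Rpl12, Aarsd1, Ptcd1, Rnaseh2a and Use1. Alyref, an adaptor for mRNA export, measured 10.22 to 10.95 in MIB control and 9.06, 9.13 and 9.75 in ACD mutant, a difference of -1.24 log2 (SE 0.21, adjusted p = 0.0342). Its other probe set, at 6.42 and 6.60 on average, differed by only -0.18. Against MIB control replicates 6 and 7 the difference of Alyref was -1.61 (adjusted p = 0.0417). Rpl12, a protein of the large ribosomal subunit, measured 9.20 to 9.77 in MIB control and 8.43, 8.42 and 8.57 in ACD mutant, a difference of -0.91 (SE 0.14, adjusted p = 0.0320). Rpl12 has processed copies in the genome, which the array may not tell apart. Aarsd1, an editing factor for mischarged tRNA, fell by 1.02 and Ptcd1, a mitochondrial RNA-binding protein, by 0.82. The other Ptcd1 probe set differed by only -0.17. Rnaseh2a, the catalytic subunit of RNase H2, fell by 0.83, and Use1, a SNARE of the endoplasmic reticulum, by the same amount. In ACD mutant replicates 1 to 3 Aarsd1 was at 9.28, 9.57 and 10.01, and Rnaseh2a at 9.18, 9.34 and 9.69. Use1 was at 10.07, 10.17 and 10.39, and Ptcd1 at 5.43, 5.40 and 5.19. Replicate 1, which had the largest Gapdh difference of these arrays, was thus the lowest for Aarsd1, Rnaseh2a and Use1 and the highest for Ptcd1. Against MIB control replicates 6 and 7 Rpl12 (adjusted p = 0.0439) and Use1 (0.0439) were called. Aarsd1 (0.0583), Ptcd1 (0.0542) and Rnaseh2a (0.0583) were not. Paf1, of the elongation complex of RNA polymerase II, and Med7, of the Mediator complex, each fell by 0.80, with values named after they were seen.

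Mid1, a microtubule-bound ubiquitin ligase, measured 8.65 to 9.44 in MIB control and 8.27, 8.21 and 7.66 in ACD mutant, a difference of -1.08 (SE 0.20, adjusted p = 0.0495). Its lower controls were replicates 6 and 7, and against them alone the difference was -0.73 (adjusted p = 0.104). Dipk1b, a kinase-like protein of the endoplasmic reticulum, fell by 0.96 and was also called against MIB control replicates 6 and 7, at -1.06 (adjusted p = 0.0439). Dpp4, the surface peptidase CD26, fell by 0.84, and Tnfsf13os, a transcript antisense to the cytokine gene Tnfsf13, by 0.87. Neither was called against MIB control replicates 6 and 7, with adjusted p of 0.0619 and 0.0583. The other bright Dpp4 probe sets differed by 0.03 and -0.74. Outside the naming rule, and picked after their values were seen, Tacc3, a spindle protein, fell by 0.75, the B-cell receptor Cd72 by 0.75, and the pro-apoptotic Bid by 0.71.

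Surface receptors were among the genes that rose, while Dpp4 and Cd72 fell. Cd300lb, an activating receptor of the CD300 family, had the largest rise. It measured 7.40, 7.19, 5.98, 7.13 and 6.35 in MIB control replicates 3 to 7, and 9.08, 9.38 and 9.10 in the ACD mutant arrays. The 3 ACD mutant values lay close together, while the controls spread over more than 1 log2 without reaching them. The difference was 2.38 log2 (SE 0.29, adjusted p = 0.0196), or 5.19-fold, and 2.44 (adjusted p = 0.0244) against MIB control replicates 6 and 7. Cd33, a lectin receptor of myeloid cells, measured 6.20 to 6.63 in MIB control and 7.06, 7.23 and 7.07 in ACD mutant, a difference of 0.73 (SE 0.11, adjusted p = 0.0324), and 0.81 (adjusted p = 0.0461) against replicates 6 and 7. Cnr2, the cannabinoid receptor of blood cells, measured 5.08 to 6.25 in MIB control and 7.38, 6.56 and 7.11 in ACD mutant, a difference of 1.49 (SE 0.25, adjusted p = 0.0342). Its highest control was replicate 7, and against replicates 6 and 7 the difference was 1.15 (adjusted p = 0.0921).

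Selp, Cd55 and Notch1 also rose. Selp, the P-selectin stored in platelet and endothelial granules, measured 9.29, 9.57, 9.61, 9.20 and 8.84 in MIB control replicates 3 to 7, and 10.49, 10.50 and 10.34 in ACD mutant. The difference was 1.14 log2 (SE 0.17, adjusted p = 0.0319), and 1.43 (adjusted p = 0.0244) against replicates 6 and 7. Its other probe sets differed by less, at 0.58 and 0.35. Cd55, which shields cells from complement, measured 5.36 to 5.88 in MIB control and 6.66, 6.80 and 6.53 in ACD mutant, a difference of 1.07 (SE 0.13, adjusted p = 0.0196). Its other probe sets gave 1.02 and 0.97. Notch1, the receptor that directs progenitors to the T cell lineage, measured 8.26 to 8.67 and 9.15, 9.47 and 9.13, a difference of 0.72 (SE 0.12, adjusted p = 0.0384), with another probe set at 0.16. Against replicates 6 and 7 Cd55 (1.05, adjusted p = 0.0542) and Notch1 (0.78, adjusted p = 0.0706) were not called.

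Pcp4l1, a small protein related to the calmodulin regulator Pcp4, had the second smallest p. It measured 6.54, 6.64, 6.46, 7.01 and 6.77 in MIB control replicates 3 to 7 and 7.93, 8.15 and 8.37 in ACD mutant. MIB control replicates 6 and 7 were the highest controls, and still lay below every ACD mutant array. The difference was 1.46 log2 (SE 0.14, adjusted p = 0.00513), and 1.26 (adjusted p = 0.0392) against those controls.

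Regulators of transcription were called in both directions, with Paf1 and Med7 lower and the following higher. Zfp467, a zinc finger factor, measured 5.89 to 6.63 in MIB control and 7.80, 7.77 and 7.39 in ACD mutant, a difference of 1.39 (SE 0.19, adjusted p = 0.0278). Atf7, a factor of the CREB and ATF family, measured 5.65 to 6.26 and 7.01, 7.52 and 7.16, a difference of 1.18 (SE 0.16, adjusted p = 0.0278). Both were also called against MIB control replicates 6 and 7 alone, at 1.25 and 1.32. The other bright Atf7 probe set went the opposite way, at -0.11, and those of Zfp467 gave 0.59 and 0.35. Mysm1, a histone H2A deubiquitinase needed by blood stem cells, rose by 1.32 (SE 0.22, adjusted p = 0.0342), but was not called against replicates 6 and 7 (1.17, adjusted p = 0.0649). Its other probe sets differed by 0.57 and 0.00. Picked after their values were seen, the histone demethylase Kdm5b rose by 1.07, the DNA methyltransferase Dnmt3a by 0.81, the repressor Rest by 0.69, and the homeobox gene Hlx by 0.96. Of these Kdm5b and Dnmt3a were called against replicates 6 and 7 too. The other bright probe sets of Dnmt3a gave -0.26, 0.08, 0.75 and 0.09, so most of them showed little or no rise. That of Rest went the opposite way, at -0.25, and that of Kdm5b gave 0.49. Fbp1, an enzyme of gluconeogenesis, rose by 1.20, Tent5c, a poly(A) polymerase, by 1.25, and Cnnm4, a magnesium transporter, by 1.28. Of these Tent5c was called against replicates 6 and 7 (adjusted p = 0.0461), and Fbp1 (0.0531) and Cnnm4 (0.116) were not. Cnnm4 was at 10.10, 9.19 and 8.79 in ACD mutant and 7.84 to 8.24 in MIB control, with ACD mutant replicate 1 well above the other two, and its other probe sets differed by -0.30 and 0.43.

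**Figure D2:**
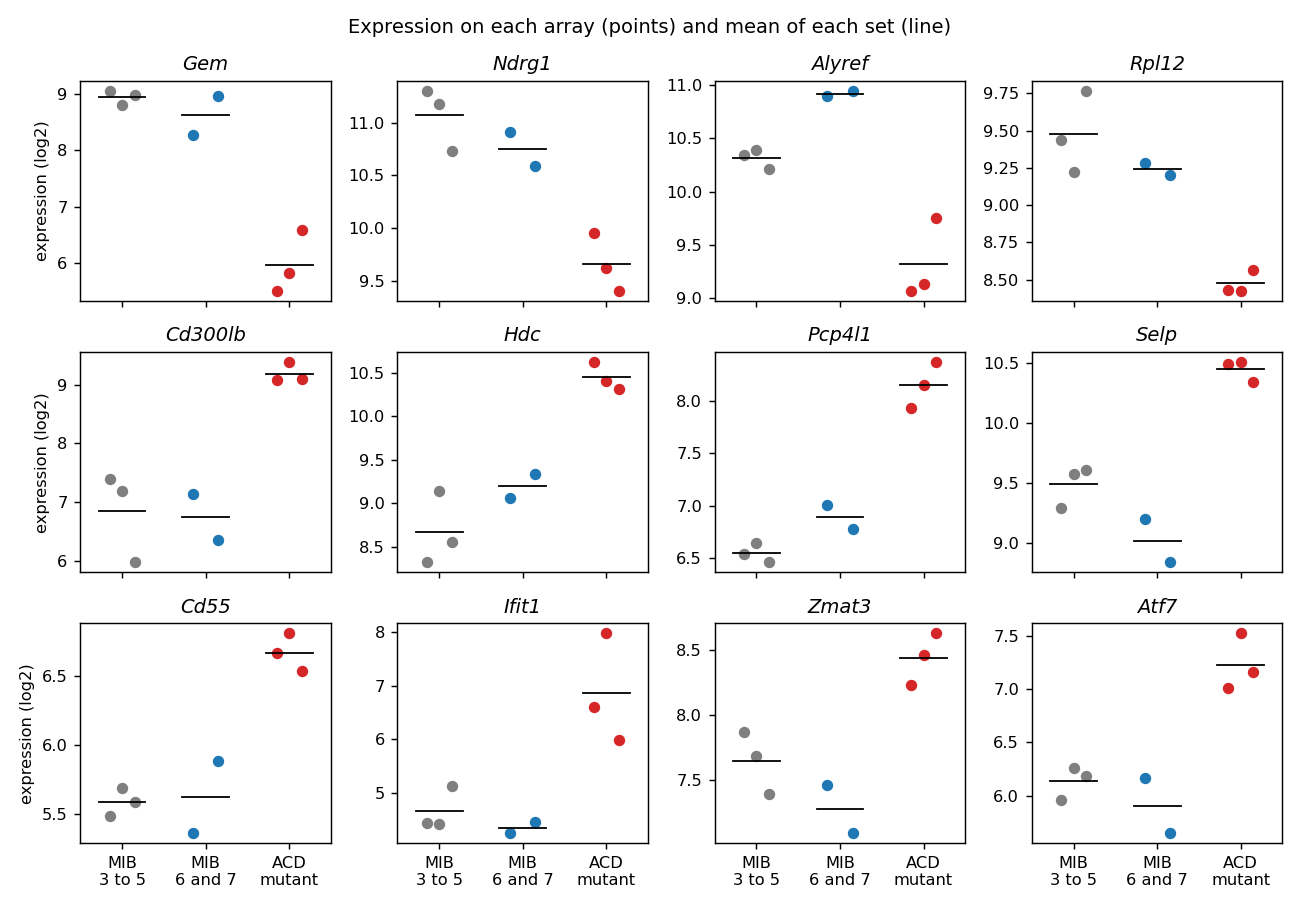
Each panel plots 1 gene, with every array as a point on the log2 expression scale and a line at the mean of MIB control replicates 3 to 5, MIB control replicates 6 and 7, and ACD mutant. In all 12 panels the ACD mutant arrays lie outside the range of all 5 controls, with Ifit1 the most spread among ACD mutant arrays.

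Where a called gene had further probe sets, they did not always share its size. Of the 72 called genes, 34 had 64 other probe sets bright enough to be tested. Of those 64, 51 had the same direction and 20 were at least 50% as large. In 12 genes at least 1 other probe set went the opposite way.

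Most genes induced by interferon had higher levels in the ACD mutant, by amounts that varied between its arrays. Interferons bind surface receptors that activate JAK kinases, and the factors these activate then switch on antiviral genes through a short DNA element with repeated GAAA. Retroviral transduction was common to all groups, including the controls, and whether the virus dose differed between them was not tested. Of 61 listed interferon-stimulated genes, 55 were tested and 50 of them had a difference above 0, as did 51.2% of all genes. The median difference was 0.44 log2, and 0.41 against MIB control replicates 6 and 7, where 47 were above 0. Only Ifit1 and Oasl2 were called, and no member was called against MIB control replicates 6 and 7, while 27 of the 55 differed by at least 0.5. In 18 (32.7%) all ACD mutant arrays lay above all controls, against 6.91% of all genes, and in none did they all lie below.

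Promoters are printed for the called genes Ifit1 and Oasl2 and for Gbp2, the gene with the next smallest p of the list, because the interferon element can be read in them. They are the 150 bases just before the start of each gene, on the plus strand, from RefSeq on build GRCm38.p6, at chr19:34640739-34640888 for Ifit1, chr5:114896784-114896933 for Oasl2 and chr3:142620513-142620662 for Gbp2. Capitals mark the motif searched on both strands, which is GAAA, any 2 bases and GAAA again. All matches here are on the opposite strand and so read TTTC, 2 bases and TTTC.
Ifit1: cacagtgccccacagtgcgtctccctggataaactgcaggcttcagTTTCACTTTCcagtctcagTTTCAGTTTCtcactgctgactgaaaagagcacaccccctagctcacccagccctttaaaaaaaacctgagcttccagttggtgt
Oasl2: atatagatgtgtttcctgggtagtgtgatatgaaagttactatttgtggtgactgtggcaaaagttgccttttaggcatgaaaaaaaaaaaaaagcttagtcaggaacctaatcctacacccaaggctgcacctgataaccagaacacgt
Gbp2: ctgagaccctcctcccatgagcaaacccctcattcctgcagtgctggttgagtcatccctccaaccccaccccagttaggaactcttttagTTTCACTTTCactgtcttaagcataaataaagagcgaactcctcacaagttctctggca
The Ifit1 promoter held 2 matches, 104 to 95 and 85 to 76 bases before the start, that of Gbp2 held 1 match, 59 to 50 bases before it, and that of Oasl2 held none in this window. Over windows of 300 bases, 250 before and 50 after the start, the motif occurred in 1131 of 32851 promoters (3.44%). It occurred in 20 of the 43 listed interferon-stimulated genes that were tested and had a promoter in the table (46.5%). Those 20 had a median difference of 0.40 and the 23 without it one of 0.37.

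Ifit1, which binds viral RNA that lacks host cap methylation, measured 4.43, 4.41, 5.11, 4.24 and 4.44 in MIB control replicates 3 to 7 and 6.60, 7.97 and 5.98 in ACD mutant. All ACD mutant arrays were above all controls, with replicate 2 the highest. Most control values were low, where differences may be compressed, which was not tested. Its control mean of 4.53 was under the brightness filter of 5.07, so that it was tested only because of its level in ACD mutant. The fitted difference was 2.33 log2 (SE 0.36, adjusted p = 0.0324), and 2.51 (adjusted p = 0.0592) against MIB control replicates 6 and 7. Oasl2, a relative of the oligoadenylate synthetases, measured 5.88, 5.91, 6.99, 6.09 and 6.52 in MIB control and 7.82, 9.21 and 7.77 in ACD mutant. The difference was 1.99 (SE 0.34, adjusted p = 0.0381), or 3.97-fold, and 1.96 (adjusted p = 0.0666) against MIB control replicates 6 and 7. Again replicate 2 was the highest ACD mutant array and MIB control replicate 5 the highest control. Gbp2, a guanylate-binding protein that attacks vacuoles of pathogens, measured 7.86 ± 0.14 (SD, n = 5) in MIB control and 8.39, 8.96 and 8.47 in ACD mutant, which were all above the controls, a difference of 0.75 (SE 0.14, adjusted p = 0.0509), and 0.66 (adjusted p = 0.106) against replicates 6 and 7.

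The same arrays led in the rest of the interferon list. The list median, each gene taken relative to its MIB control mean, was 0.30, 0.73 and 0.27 in ACD mutant replicates 1 to 3, and between -0.18 and 0.21 in the controls, the highest being replicate 5. In 44 of the 55 genes ACD mutant replicate 2 was the highest of the 3 ACD mutant arrays. With it left out the list median was 0.28 and 45 genes had a difference above 0. Members below the threshold showed the spread. Rtp4 had a difference of 2.10 (adjusted p = 0.0833), but MIB control replicate 5 at 9.43 was level with ACD mutant replicates 1 and 3 at 9.41 and 9.31. Irf9, the DNA-binding part of the interferon complex, measured 7.23 to 7.86 in MIB control and 8.22, 9.05 and 8.46 in ACD mutant, a difference of 0.92 (adjusted p = 0.0629). Oas2 had a difference of 1.15 and Usp18, which damps the receptor, one of 1.10. The immunoproteasome subunits Psmb8 and Psmb9, and Irf1, were among the 5 members with a difference below 0, at -0.42, -0.43 and -0.10. Among 24 interferon receptors, sensors and signal carriers none was called and the median was 0.13. The gamma receptor chain Ifngr2 had a difference of 1.18 and the adaptor Mavs one of 0.71.

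**Figure D3:**
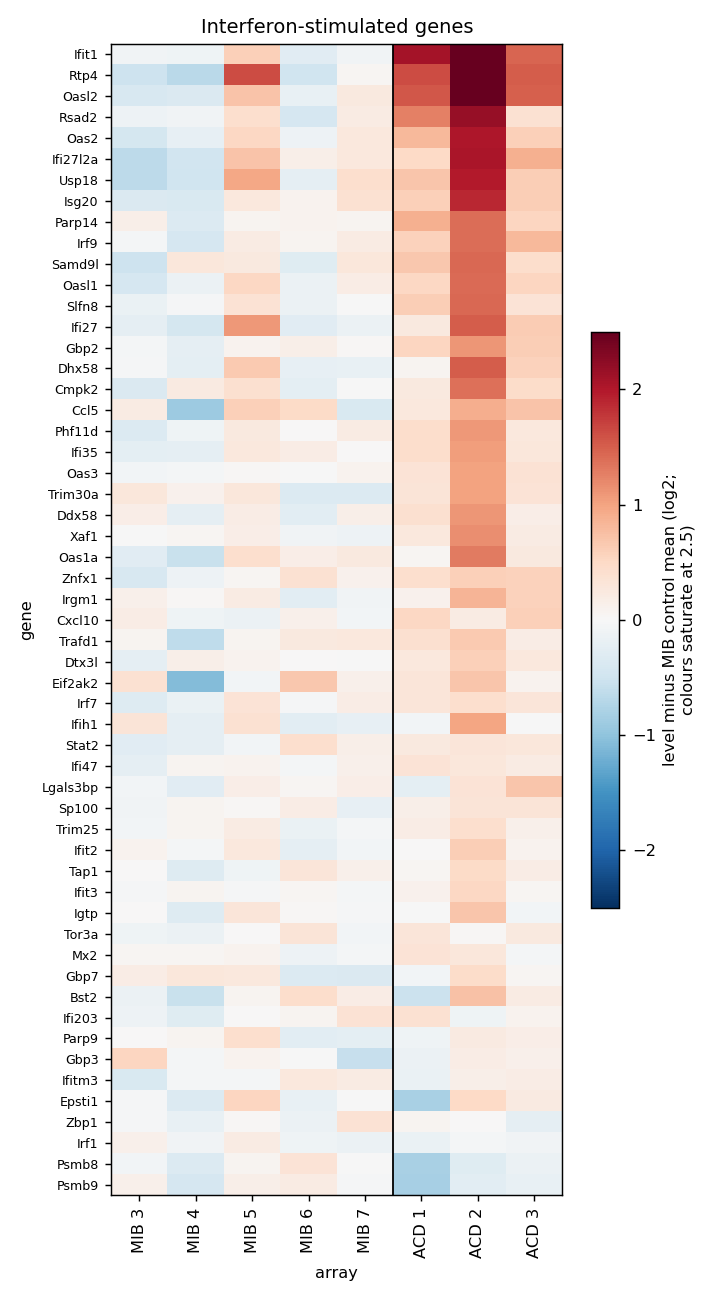
Rows are the 55 interferon-stimulated genes tested, ordered by their difference, columns are the 8 arrays, and colour is the level minus the MIB control mean on the log2 scale. ACD mutant replicate 2 has the deepest red, replicates 1 and 3 are paler, and MIB control replicate 5 is the reddest control.

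Targets of p53, the factor that halts the cycle or triggers death after damage, differed in both directions. Of 27 tested, 20 had a difference above 0 and the median was 0.21 log2, and 0.22 against MIB control replicates 6 and 7. Groups did not overlap in 8 members that were higher and 2 that were lower, against 6.91% and 5.82% of all genes. Only Zmat3 was called, and 4 members (Zmat3, Sesn2, Trp53inp1 and Ccng1) were called against MIB control replicates 6 and 7 alone, where 0.186% of all genes were called higher. Zmat3, an RNA-binding protein, measured 7.86, 7.68, 7.39, 7.46 and 7.09 in MIB control and 8.23, 8.46 and 8.62 in ACD mutant, a difference of 0.94 (SE 0.17, adjusted p = 0.0437). Sesn2, a stress-induced brake on the growth kinase mTORC1, measured 6.87 to 7.35 and 7.79, 7.78 and 7.63, a difference of 0.67 (SE 0.13, adjusted p = 0.0509). Its other probe set averaged 6.84 in MIB control and 6.93 in ACD mutant, a difference of only 0.10. Trp53inp1 had a difference of 1.02 (adjusted p = 0.0629), and Perp, a membrane protein of p53-driven death, one of 1.11 (adjusted p = 0.0566). Cdkn1a, the p21 inhibitor of cyclin-dependent kinases, had a difference of 0.76, and the death gene Bbc3 one of 0.66, with groups that did not overlap. Mdm2, the ligase that degrades p53, had a difference of 0.19, Ddb2 one of -0.40 and Aen one of -0.39.

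No member of either cell cycle list was called, although Tacc3, which is in neither, fell. Of 29 genes of G2 and mitosis 24 had a difference below 0, with a median of -0.17 log2 and array medians of -0.21, -0.18 and -0.16 in ACD mutant against -0.08 to 0.07 in the controls. Against MIB control replicates 6 and 7 the median was -0.13. The kinase Aurka had a difference of -0.54 (adjusted p = 0.0732) and Mki67, the common marker of cycling cells, one of -0.14. Of 33 genes of S phase 22 were below 0 and the median was -0.10. In the list of the integrated stress and unfolded protein responses, 37 tested, none was called and the median was -0.08. Its leading members disagreed in direction. Xbp1, the transcription factor of the unfolded protein response, had a difference of 0.61 (adjusted p = 0.0860), Sdf2l1, a chaperone partner, one of -0.82 (adjusted p = 0.0746), and Chac1, which breaks down glutathione, one of -0.75 (adjusted p = 0.0998).

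Markers of blood lineages were compared next, and in sorted bulk RNA more cells of a type and more RNA per cell cannot be told apart. Of 20 listed mast cell and basophil genes 8 were bright enough to test. Of these Hdc and Cd200r3 were called higher, as 0.357% of all genes were, and Cd200r3 passed the brightness filter only through its level in ACD mutant. The 8 genes had a median of 0.62 log2, and 0.48 against MIB control replicates 6 and 7. Hdc, which makes histamine, measured 8.32, 9.14, 8.56, 9.06 and 9.34 in MIB control replicates 3 to 7 and 10.62, 10.40 and 10.32 in ACD mutant. The difference was 1.56 (SE 0.21, adjusted p = 0.0278), or 2.95-fold, and 1.25 (adjusted p = 0.0330) against replicates 6 and 7, with its other probe set at 1.02. Cd200r3, an activating receptor of basophils and mast cells, measured 4.17 to 5.26 and 6.08, 5.68 and 6.02, a fitted difference of 1.27 (SE 0.20, adjusted p = 0.0342) from a control mean of 4.66, under the filter. Against replicates 6 and 7 it was not called (1.00, adjusted p = 0.0706). Cpa3, a mast cell protease, had a difference of 1.12 (adjusted p = 0.0841) and Ms4a2, a chain of the IgE receptor, one of 1.54 (adjusted p = 0.107). For both genes MIB control replicate 7 was nearly as high as the ACD mutant arrays, with Ms4a2 at 10.34 there against 10.11 to 10.61. The tryptase Tpsb2 and the basophil protease Mcpt8 had differences of 0.13 and -0.35.

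Of 24 monocyte and macrophage genes tested 23 had a difference above 0, Cd33 was the only one called, and the median was 0.41, and 0.37 against MIB control replicates 6 and 7 with 18 above 0. The array medians were 0.35, 0.38 and 0.48 in ACD mutant. They were 0.50 in MIB control replicate 6 and -0.32 to -0.01 in the other controls, so 1 control was as high as the ACD mutant arrays. Ms4a6c had a difference of 1.33, the clotting factor subunit F13a1 one of 1.03, and Csf1r, the receptor of the macrophage growth factor, one of 0.98, all short of the threshold.

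Megakaryocyte genes had the highest median of any list, 0.73 log2 over 18 tested with 16 above 0, but it fell to 0.16 against MIB control replicates 6 and 7. The array medians were 0.61, 0.78 and 0.72 in ACD mutant, -0.47 to -0.22 in MIB control replicates 3 to 5, 0.06 in replicate 6 and 0.93 in replicate 7. MIB control replicate 7 was thus above every ACD mutant array. Vwf, the platelet adhesion protein, measured 7.21, 7.89 and 7.13 in ACD mutant and 5.08 to 5.58, 6.37 and 7.74 in the same order of controls. The platelet receptor chain Gp1bb had a difference of 1.22 against all controls and -0.03 against replicates 6 and 7. Selp was the only member called, and unlike the list it was lowest in MIB control replicate 7.

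Genes of stem cell identity had a median of 0.22 over 34 tested, and 0.19 against replicates 6 and 7, with none called. Slamf1, the CD150 marker of stem cells, had a difference of 1.20 (adjusted p = 0.0683), Mecom one of 0.58 and Hlf one of 0.51. Neutrophil genes had a median of -0.02 over 22 tested. S100a9, a calcium-binding protein of neutrophils, had a difference of -1.39 (SE 0.59, adjusted p = 0.232), with ACD mutant at 5.00 to 5.21 and MIB control at 5.23, 6.59, 6.58, 8.51 and 5.44. MIB control replicate 6 stood high for this gene as it did for monocyte genes. Erythroid, lymphoid, dendritic and stromal lists had medians between -0.04 and 0.05, and Notch1 was the only gene called among them. What part these lineage markers have in the other differences was not tested.

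**Figure D4:**
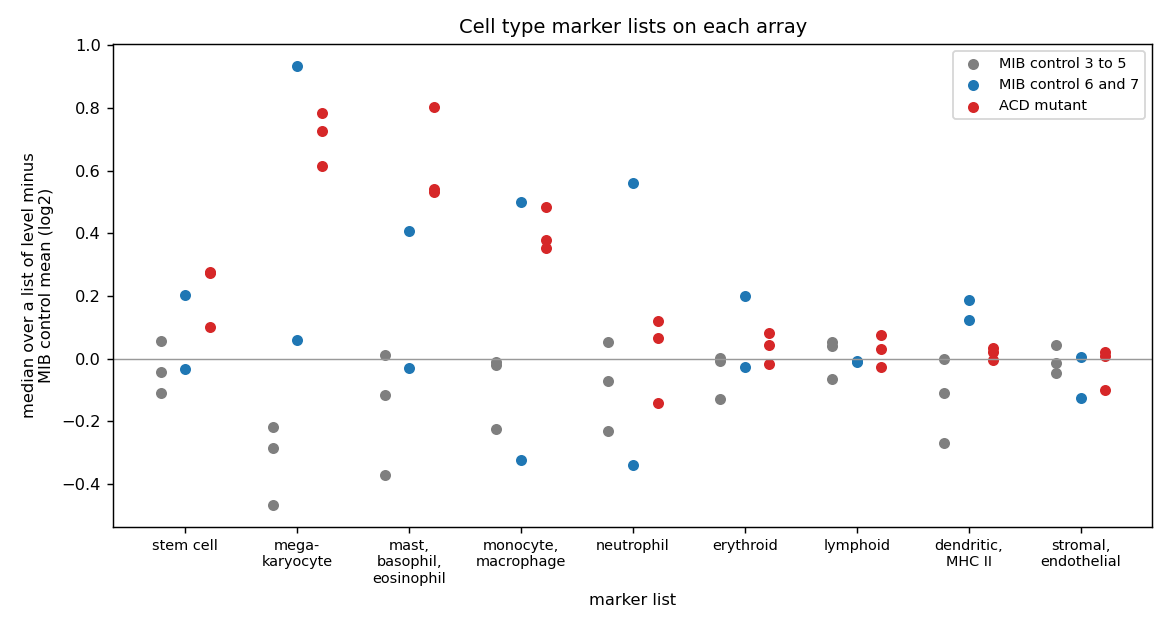
Each point is 1 array, plotted as the median over a marker list of its level minus the MIB control mean (log2), with MIB control replicates 3 to 5, MIB control replicates 6 and 7, and ACD mutant in separate colours. The megakaryocyte points of ACD mutant, 0.61 to 0.78, lie below MIB control replicate 7 at 0.93 and above the other controls.

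Genes of the core binding factor itself gave no call. Cbfb measured 12.12 in each ACD mutant array and 12.18 to 12.71 in MIB control, a difference of -0.30 (SE 0.12, adjusted p = 0.204) that was -0.14 against MIB control replicates 6 and 7. The Myh11 probe sets of the mouse gene were too dim for the filter, at 4.26 and 3.73 in ACD mutant and 4.45 and 3.96 in MIB control. The files do not tell whether these probe sets read the transgene, so they check neither its presence nor its level. Runx1 measured 10.53, 10.63 and 10.22 in ACD mutant and 10.29, 8.30, 8.91, 9.65 and 9.99 in MIB control, a difference of 1.03 (SE 0.38, adjusted p = 0.172). For this probe set the spread lay in the controls, and the other 5 Runx1 probe sets gave differences from -0.07 to 0.64. The next brightest averaged 9.77 in ACD mutant (SD 0.15) and 9.25 in MIB control (SD 0.16), a difference of 0.52. Runx3 had a difference of -0.16 (SE 0.18, adjusted p = 0.691), which was 0.13 against replicates 6 and 7. The corepressor Cbfa2t3 had a difference of 0.59.

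Among 28 RUNX1 and core binding factor targets none was called, the median was 0.09, and none had groups that did not overlap. Against MIB control replicates 6 and 7 Hmga2, a chromatin protein, was called higher, at 1.17, while against all controls it differed by 0.52. Gata1, the red cell and platelet factor, had the largest difference, 1.30, which was 0.51 against replicates 6 and 7. Among 16 genes studied with the fusion in leukaemia none was called and the median was 0.06. Meis1 had a difference of 0.53, Myc one of 0.07 and Kit one of -0.04. Of 18 growth factor receptors none was called. Csf2rb2 had a difference of 1.55, and 0.92 against MIB control replicates 6 and 7.

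**Figure D5:**
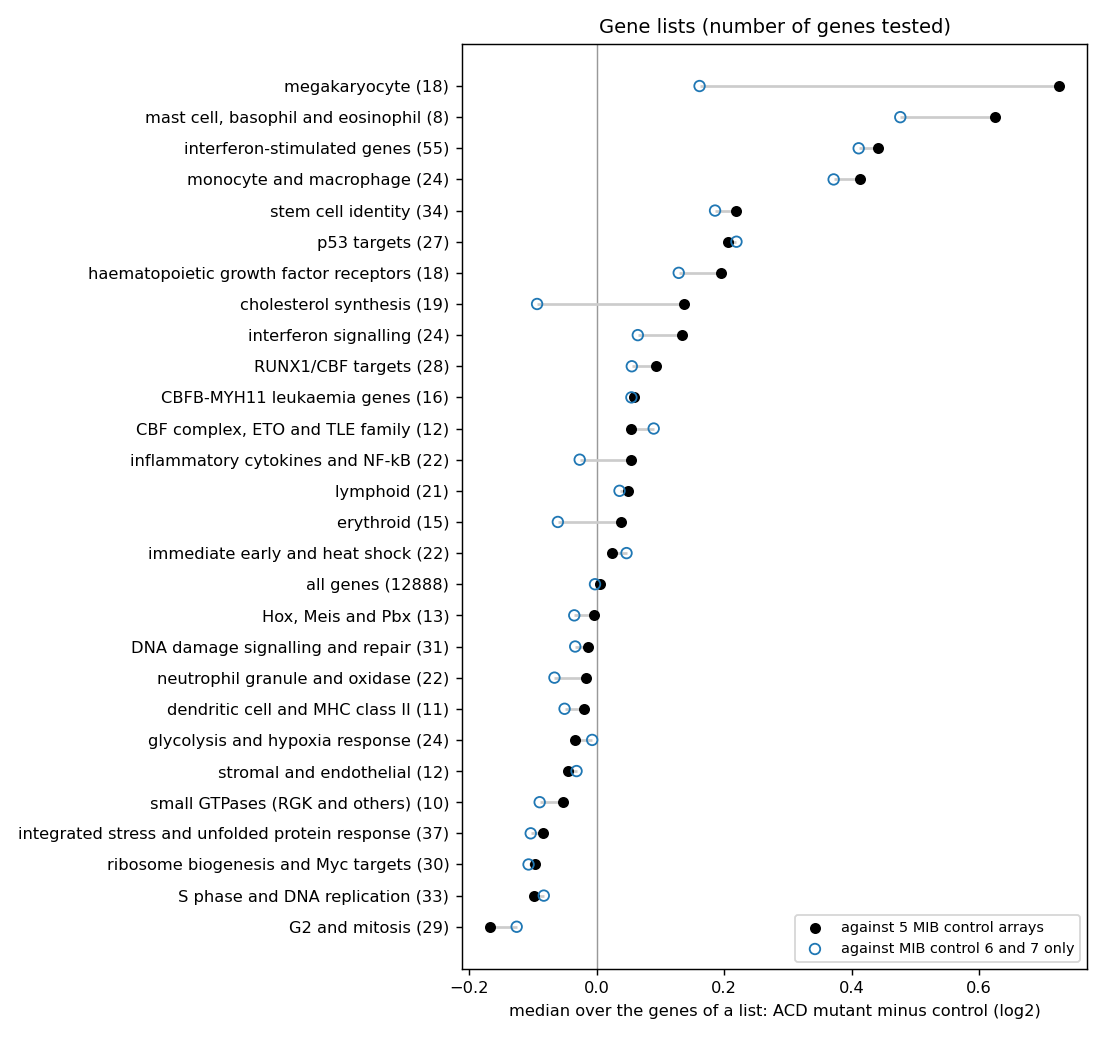
For each of 27 gene lists and for all genes, the x axis gives the median ACD mutant minus control difference (log2), filled against all 5 controls and open against MIB control replicates 6 and 7. The megakaryocyte list moves from 0.73 to 0.16, while the interferon list, at 0.44 and 0.41, and the p53 list, at 0.21 and 0.22, move little.

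Values of the full fusion were set beside those of the ACD mutant. INV16 replicate 4 was left out, because it stood apart from the other arrays, for example with Cd34 at 7.39 and Hdc at 13.95. It was the only INV16 array with a BioC minus BioB value, 0.07, near that of the ACD mutant arrays. Its BioB level was 7.71, and its Gapdh difference of 3.64 was the highest in the series. Leaving it out thus put the INV16 and ACD mutant arrays on opposite sides of the spike-in split. INV16 replicates 1 to 3 have the BioC minus BioB value of MIB control replicates 3 to 5. The 2 fusions can thus each be read against controls matched in that value, though for the ACD mutant not in BioB itself, with no array shared. Gem was at 6.64, 6.95 and 5.13 in INV16 and differed by -2.70 from MIB control replicates 3 to 5, against -2.64 for the ACD mutant from replicates 6 and 7. The difference between these was 0.06 (SE 0.60, limma adjusted p = 0.977). Zfp467 differed by 1.23 with INV16 and 1.25 with the ACD mutant, Rpl12 by -0.67 and -0.77, and Dipk1b by -0.87 and -1.06. The INV16 arrays disagreed for Zfp467, at 8.21, 7.58 and 6.38, the last within the MIB control range of 5.89 to 6.63. The SE of the difference between the 2 differences was 0.54 for this gene.

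Other genes had larger values with the ACD mutant. Ifit1 differed by -0.05 with INV16 and 2.51 with the ACD mutant, Oasl2 by -0.06 and 1.96, and Atf7 by 0.02 and 1.32. Cd300lb differed by 0.78 and 2.44, and Zmat3 by -0.13 and 1.16. Ifit1 averaged 4.60 in INV16 and 4.53 in MIB control, so it passed the brightness filter of 5.07 only through its ACD mutant level. For Zmat3 the INV16 arrays were spread, at 8.17, 7.28 and 7.10, and the first lay above the highest MIB control, 7.86. The interferon list had a median of -0.03 in INV16 against MIB control replicates 3 to 5, with 23 of 55 above 0. In the opposite way, Runx3 was 8.28, 8.36 and 8.97 in INV16, a difference of -1.85, against 0.13 for the ACD mutant. For Runx3 the difference of the 2 differences was 1.98 (SE 0.28, limma adjusted p = 0.0667). For Atf7 it was 1.30 (SE 0.24, adjusted p = 0.105) and for Ifit1 2.56 (SE 0.57, adjusted p = 0.187). No gene passed 0.05 in that test, and 1498 had an unadjusted p under 0.05. Compared directly with INV16 replicates 1 to 3 across spike-in levels, 272 genes (2.11%) were called, 233 (1.81%) higher and 39 (0.303%) lower in the ACD mutant, among them Runx3, Atf7, Ifit1, Oasl2 and Cd300lb. In that direct comparison spike-in level and fusion cannot be told apart. The brightness filter used the ACD mutant and MIB control arrays only, so genes bright only in INV16 could be left out.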

How the data were processed

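The authors deposited 1 table of log2 expression values for 45101 probe sets of an Affymetrix mouse array, made from RNA amplified in 2 cycles, per the labels' protocols. Their background correction, normalisation and summarisation are not given in the sources used here, and the log2 scale was inferred from their range, 2.82 to 14.97 on the 8 arrays. Values were used as deposited. Platform annotation gave 34945 probe sets 1 symbol, 932 several and 9211 none, and only the first were used by name. Probe sets with a mean over the 8 arrays above the 40th percentile (5.07) were kept, and the brightest stood for its gene, which left 12888 genes. The groups were compared in limma 3.58.1 (R 4.3.3) with 6 residual and 4.74 prior degrees of freedom, two-sided, with Benjamini-Hochberg adjustment over all genes. The fit was checked on simulated data. INV16 was read from a fit of 11 arrays, and the test of differences within each BioC minus BioB set was added after the data were seen.

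The comparison, the lists and the tests were chosen with earlier results of these data known. The 27 lists hold 703 distinct symbols, of which 576 were tested, and the lists overlap. Genes named with values were the 12 largest non-overlapping calls each way, up to 4 called members of each list, Cbfb, Myh11, Runx1, Runx3, Kit, Flt3, Cd34 and Gem, the 3 members with the smallest p of the interferon, p53, stress and inflammatory lists, and the 10 genes with the smallest p each way that did not overlap and differed by at least 1 log2 from MIB control replicates 6 and 7. The remaining members of lists named with values, and genes said to be picked afterwards, were chosen after their values were seen. Names of genes are those of the array annotation. Alternatives were other filters, quantile normalisation, the mean of probe sets, trended and robust moderation, array weights, the spike-in level as a block, a Gapdh covariate, other sets of arrays and leaving out each array. The number of arrays limits the precision, and some genes were not reported here.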

Additional observations from a re-analysis of the deposited data

Results flagged for a closer look

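In 3 of the 50 named genes 1 MIB control array lay far from the other 4 by Dixon's test, which chance gives in about 1 in 20 groups. Ifit1 measured 5.11 in MIB control replicate 5 and 4.24 to 4.44 in the others. Ptcd1 measured 6.50 in replicate 3 and 6.03 to 6.12 in the others. Flt3 measured 9.34 in replicate 3 and 8.34 to 8.57 in the others.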

How the results depend on the processing

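Of the 50 named genes Gem was called against MIB control in every alternative to the 8-array fit except that of all 12 arrays, in which no gene was called by limma (891 at an unadjusted p under 0.05). The count of 72 became 217 with 11 arrays, 44 with MIB control replicates 6 and 7 only, 22 with the spike-in level as a block, 728 with array weights and 1 with the Gapdh covariate, and 1 to 470 with 1 array left out. Quantile normalisation gave 93 calls, 50 higher and 43 lower, against 46 and 26. Without ACD mutant replicate 3 the split was 31 higher and 68 lower. The count of 44 against MIB control replicates 6 and 7 became 84 with no filter, 90 with trended and robust moderation and 0 with the mean of probe sets (2503 at an unadjusted p under 0.05 in limma), and 0 to 104 with 1 array left out. The count of 272 against INV16 became 165 with the mean of probe sets, 2344 with array weights, 5 with all 12 arrays, 0 as a difference of within-spike-in differences (1498 at an unadjusted p under 0.05 in limma), and 37 to 517 with 1 array left out. The cause of these shifts was not tested. The difference of Runx3, -0.16, became 0.13 against MIB control replicates 6 and 7 and with the block. That of Kit, -0.04, became 0.047 in both, 0.18 with the mean of probe sets, 0.031 with array weights and 0.15 with the Gapdh covariate, and ran from -0.15 to 0.083 with 1 array left out. No paired analysis was possible because the groups share only replicate number 3. The array signals come with no measure of background, so differences of dim genes such as Ifit1 may be understated.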

Other observations

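Some groups of genes have not been described above. In the cholesterol synthesis list, 19 genes tested, the median difference was 0.14 log2 against all controls and -0.09 against MIB control replicates 6 and 7, and the list median was -0.46 in MIB control replicate 5 and 0.52 in replicate 7. None of its members was called. Ribosome biogenesis and Myc targets had a median of -0.10 over 30 genes, with 20 below 0 and none called, and -0.11 against replicates 6 and 7. Hox, Meis and Pbx genes, 13 tested, had a median of 0.00 and none was called. The inflammatory list, 22 tested, had a median of 0.05. Tnf had a difference of -0.21 (adjusted p = 0.255), Nfkbiz one of -0.33 (adjusted p = 0.243) and Bcl3 one of 0.60 (adjusted p = 0.151), by limma over all genes.

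The naming rule also took genes below the threshold whose groups did not overlap and that differed by at least 1 log2 from MIB control replicates 6 and 7. The stem cell surface marker Prom1 had a difference of -0.96 (adjusted p = 0.0833), with ACD mutant at 5.14 to 5.27 and MIB control at 5.57 to 6.96. Wdr55 had a difference of -0.87 (adjusted p = 0.0622), Znrd2 one of -0.73 (adjusted p = 0.0846) and 9030619P08Rik one of -1.30 (adjusted p = 0.0701). Of 3723 bright probe sets without a symbol here, 3 were called, 1 higher and 2 lower.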
